A study of Homo sapiens with 6 samples.

Results

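The 35 genes described here encode the transporters and enzymes that carry glucose to lactate, the regulators of that route, and genes of the hypoxia response. They were chosen by gene symbol with earlier results of these data known, although no measured value entered the rule, and all 35 were found among the 58735 genes of the count table. RNA-seq was performed on 3 libraries of cells given the negative control siRNA (siControl, the NC group of the study) and 3 of cells given HOXA3 siRNA (siHOXA3). All 6 came from H9, a single wild-type hESC line, which was grown on a MEF feeder layer and directed towards endoderm of the third pharyngeal pouch (3PPE). Both groups received Activin A and WNT3A with the ROCK inhibitor Y-27632, then Activin A with B27. After reseeding on Matrigel at day 4 they received B27, RA, SB431542, BMP4 and IWP2. Both were transduced at day 7 with Lipofectamine 3000, moved to opti-MEM some hours later and harvested at day 9, so that nothing but the siRNA distinguished the groups in the labels. The comparison asks whether these genes differed after HOXA3 inhibition. The labels speak of a triplicate for each group and the study calls its repeats biological and independent, but no label ties a library to a culture, and p-values measure only the spread between these libraries.

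Glycolysis splits glucose into pyruvate through a fixed series of enzymes. Most steps are served by several isoenzymes from separate genes, and pyruvate is either reduced to lactate or sent to the mitochondria through pyruvate dehydrogenase. Under low oxygen the prolyl hydroxylases of the EGLN family slow down, the HIF alpha subunits are no longer degraded, and HIF binds short elements near its target genes, among them most genes of glycolysis. HIF alpha subunits are controlled mainly as proteins, which RNA-seq does not measure. Pluripotent cells are known for active glycolysis, which shifts as they differentiate.

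The core of the HIF binding element is the motif ACGTG or GCGTG. It was searched on both strands in the 250 bases before each transcript start of RefSeq (GRCh38.p14), where a CACGTG palindrome counts as a match on each strand. A window was given for 30 of the 35 genes, and those without one were SLC2A3, SLC16A1, PFKFB2, VEGFA and NDRG1. At least 1 window held the motif in 25 of the 30 genes (83.3%), against 47.4% of 27305 genes with a window. Counted by window, 33 of 57 windows of these genes (57.9%) and 43.2% of all 35116 windows held it. These shares are descriptions, and a match is no evidence of binding. The windows of 5 genes are shown because the results turn on them or because they are textbook HIF targets, with the matches in capitals. ALDOC, PFKL and HK2 are the members whose groups did not overlap, PGK1 is a classic HIF target of glycolysis, and CA9 is a HIF target that was barely detected here.
ALDOC (chr17:28576896-28577145, minus strand): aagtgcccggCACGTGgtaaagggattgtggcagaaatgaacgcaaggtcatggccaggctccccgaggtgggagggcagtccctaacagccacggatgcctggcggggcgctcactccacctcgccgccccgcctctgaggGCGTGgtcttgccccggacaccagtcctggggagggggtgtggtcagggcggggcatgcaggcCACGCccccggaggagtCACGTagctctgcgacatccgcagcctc
PFKL (chr21:44299803-44300052, plus strand): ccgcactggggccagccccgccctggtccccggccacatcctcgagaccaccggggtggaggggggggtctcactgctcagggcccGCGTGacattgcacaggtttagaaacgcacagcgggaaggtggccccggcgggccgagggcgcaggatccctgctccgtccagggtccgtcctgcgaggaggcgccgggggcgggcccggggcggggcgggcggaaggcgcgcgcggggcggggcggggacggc
HK2 (chr2:74833877-74834126, plus strand, the upstream one of its windows): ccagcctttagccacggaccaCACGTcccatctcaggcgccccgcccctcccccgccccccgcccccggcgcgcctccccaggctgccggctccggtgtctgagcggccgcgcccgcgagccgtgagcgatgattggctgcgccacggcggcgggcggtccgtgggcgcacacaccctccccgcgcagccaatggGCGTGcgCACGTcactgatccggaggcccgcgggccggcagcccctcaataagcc
PGK1 (chrX:78103998-78104247, plus strand): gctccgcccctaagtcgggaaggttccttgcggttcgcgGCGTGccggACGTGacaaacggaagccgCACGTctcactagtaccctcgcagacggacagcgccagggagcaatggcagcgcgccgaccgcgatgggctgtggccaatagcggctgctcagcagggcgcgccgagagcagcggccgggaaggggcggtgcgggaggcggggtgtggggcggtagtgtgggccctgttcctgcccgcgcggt
CA9 (chr9:35673678-35673927, plus strand): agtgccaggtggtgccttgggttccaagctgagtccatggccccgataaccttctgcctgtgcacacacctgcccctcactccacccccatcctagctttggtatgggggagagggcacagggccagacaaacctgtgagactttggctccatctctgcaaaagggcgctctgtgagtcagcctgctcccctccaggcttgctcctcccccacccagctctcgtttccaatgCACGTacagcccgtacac
The ALDOC window held 5 matches, the HK2 and PGK1 windows 3 each, and the PFKL and CA9 windows 1 each. The second HK2 window held 6, and no match was found in the windows of SLC2A1, PGAM1, PKM, LDHB and EGLN3.

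Total counts per library ranged from 14117150 to 15282307, and 16561 genes passed edgeR's filter on low counts. HOXA3, the targeted gene, had 16.7, 15.9 and 15.5 CPM (read counts scaled to the normalized library size) in siControl and 10.9, 13.2 and 15.5 CPM in siHOXA3, and the groups overlapped (log2 fold change -0.27, adjusted p = 0.828, edgeR; exact permutation test, two-sided, p = 0.2, where 3 against 3 libraries cannot give less than 0.1). Left-out libraries gave it log2 fold changes from -0.15 without siHOXA3 replicate 1 to -0.40 without siHOXA3 replicate 3, where the groups did not overlap (unadjusted p = 0.0385, adjusted p = 0.596, edgeR), and it was -0.34 with limma-voom (unadjusted p = 0.0315, adjusted p = 0.325). The study reports lower HOXA3 after this siRNA by qRT-PCR, Western blot and immunofluorescence, while no call was made in these counts. Every direction given for the siHOXA3 libraries is therefore a direction by label. Of 11 markers of pouch and foregut endoderm, 4 passed the filter, and their summed level was 310.9 to 323.1 CPM in siControl and 314.7 to 440.9 CPM in siHOXA3, mostly from EPCAM. The endoderm regulators FOXA2 and SOX17 and the pouch genes PAX1 and TBX1 were too low to be tested. The summed level of 5 mesenchyme and fibroblast markers was 2366 to 2557 CPM in siControl and 2591 to 2870 CPM in siHOXA3. It came mostly from COL1A1 and COL1A2, while TWIST1 had a mean of 3.59 CPM and THY1 of 13.6 CPM in siControl. That of 5 amnion and trophoblast markers was 1194 to 1238 and 1203 to 1311 CPM. It came mostly from KRT7, GATA3 and TFAP2A, while ISL1 had a mean of 12.1 CPM and CGA of 17.4 CPM in siControl. The 4 pluripotency markers summed to 1045 to 1072 CPM in siControl and 1087 to 1209 CPM in siHOXA3, nearly all from LIN28A. The mesenchyme and pluripotency sums did not overlap between the groups, and neither sum was tested. Of all single genes tested, 6.41% lay higher in siHOXA3 without overlap. The 4 neural markers summed to at most 1.55 CPM and the 4 liver markers to at most 5.17 CPM. Most defining markers of the labelled cell type were thus at or near 0, and in bulk RNA fewer cells of a type and less RNA per cell cannot be told apart. The part of these other markers in the values below was not tested.

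The library siHOXA3 replicate 2 stood apart. Its counts differed from those of the other libraries by a chi-square per degree of freedom of 28.2 to 34.1, against 4.83 to 11.7 among the other libraries. It was the highest of the 6 libraries for 14 of the 34 members tested and the lowest for 6, while siHOXA3 replicate 3 was the lowest for 12 and the highest for 1. Over all tested genes siHOXA3 replicate 2 was highest for 28.9% and lowest for 29.2%. In this library the deviation of a gene from its mean had a Spearman correlation of -0.586 with the length of its exons across 10134 genes of at least 10 CPM, and of -0.337 across the 32 members at that level, so that short genes tended to read high in it. In the other libraries the correlation across all genes was 0.143 to 0.326. The points share a library and their depth, and the correlations are descriptions. Values without this library are given for each member whose log2 fold change turned or whose unadjusted p fell under 0.05 when it was left out, and the part of gene length in them was not tested.

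**Figure D1:**
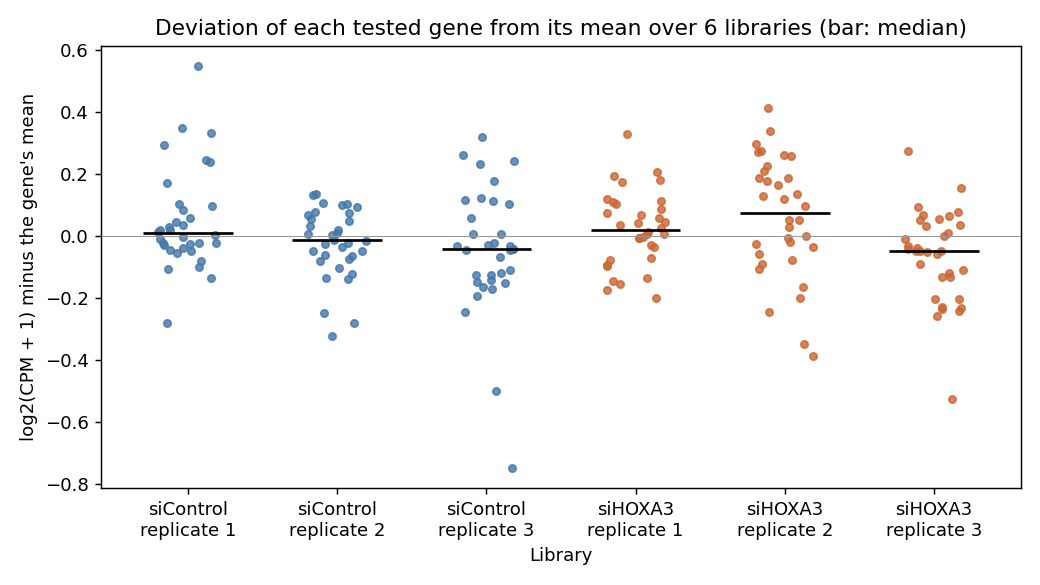
Each point is 1 of the 34 tested members in 1 library, plotted as its log2(CPM + 1) minus its mean over the 6 libraries, and the bar is the median. The median lies highest, at 0.0735, in siHOXA3 replicate 2, and lowest, at -0.0494, in siHOXA3 replicate 3.

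The members spanned a wide range of levels, with enzymes of the later steps of glycolysis among the highest. Per length of exon sequence, GAPDH, the dehydrogenase of glyceraldehyde phosphate, stood at 577.9 to 665.6 CPM per kb over the 6 libraries, above every other member. EPAS1, which encodes the alpha subunit of HIF-2, followed at 158.7 to 228.1 CPM per kb and overlapped with the glycolytic enolase ENO1 at 157.4 to 190.7 CPM per kb. The glucose transporter SLC2A3 (117.7 to 166.4 CPM per kb) and the mutase PGAM1 (118.8 to 160.6 CPM per kb) came next and overlapped with each other. In all, 10 of the 35 genes had a mean of at least 50 CPM per kb, and the others of these 10 were PKM, TPI1, SLC2A1, SLC16A1 and HIF1A. At the other end, CA9, which was not tested, stood at 0 to 0.239 CPM per kb and the prolyl hydroxylase EGLN3 at 0.189 to 0.374 CPM per kb. Neighbours in this order mostly overlapped in their ranges over libraries, and a gap that no range crossed was found only just below GAPDH, HIF1A, PGK1, PFKL, EGLN1, HK2 and ALDOA. The order rests on the length used. With the length of the principal transcript, the main isoform by its APPRIS rank, 14 members reached 50 CPM per kb, the order correlated with that of the exon union at 0.955 (Spearman, 35 genes), and the level of VEGFA was 12.0 times as high. ENO1 and PKM then stood above EPAS1, as they did with the longest transcript, so that the place of EPAS1 holds for the exon union and not for those lengths. Of 140 levels recomputed with other lengths or with pseudogene rows, 65 moved by more than the SD over libraries.

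**Figure D2:**
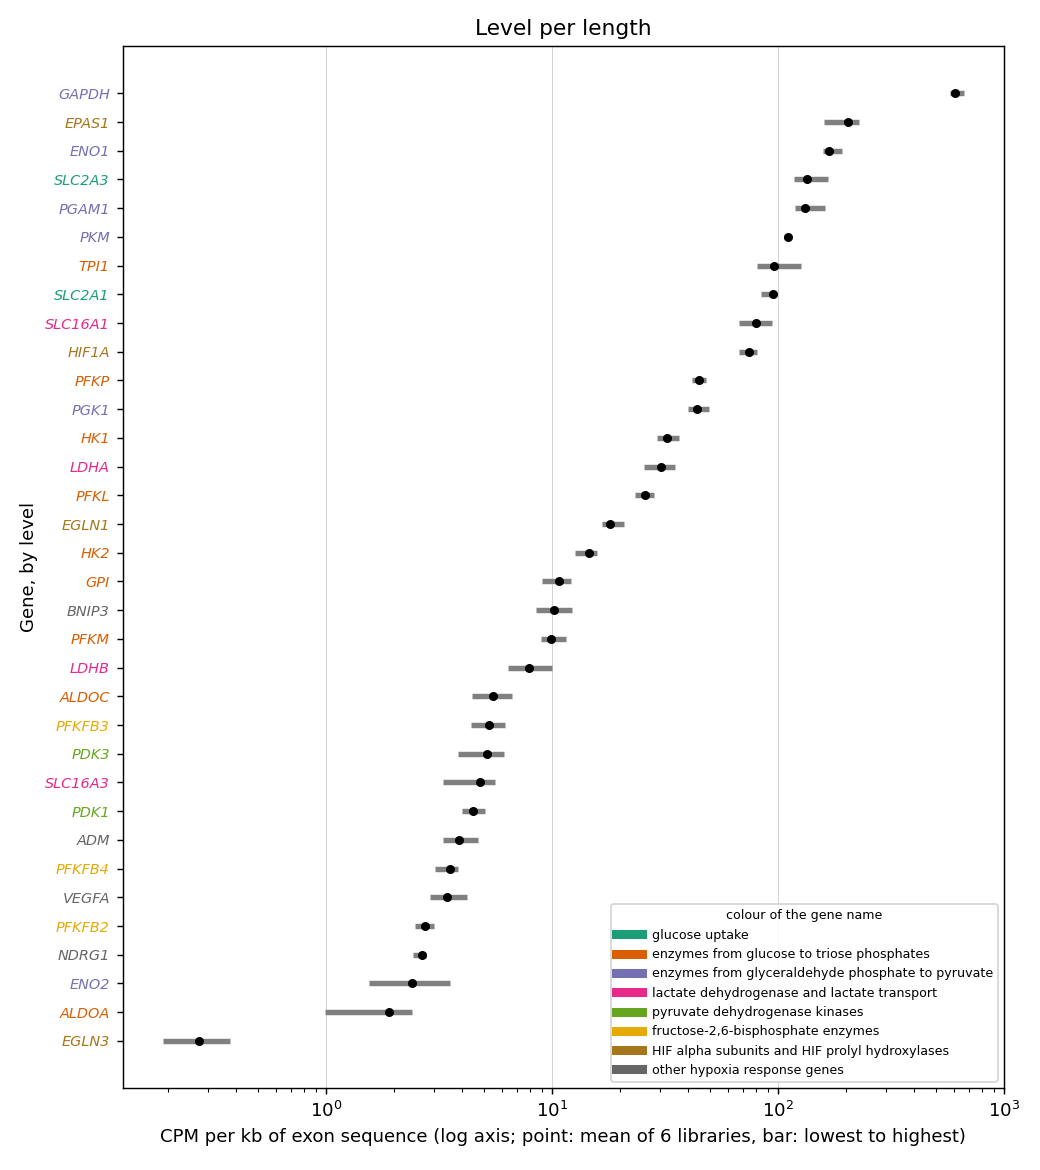
Level of each member in CPM per kb of exon sequence on a log axis, with the mean of 6 libraries as a point and the lowest and highest library as the ends of the bar, and gene names coloured by role. GAPDH stands apart at the top (mean 606.8 CPM per kb) and EGLN3 is the lowest drawn (0.274), and CA9, which was at 0 in some libraries, is left out.

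Of the 35 members, 34 passed the filter and 0 were called by the quasi-likelihood test of edgeR (Benjamini-Hochberg adjusted p under 0.05 over all tested genes), where 0.00604% of all tested genes did. DESeq2 and limma-voom also left 0 members under 0.05. At an unadjusted p under 0.05 there was 1 member, ALDOC, where 6.36% of all tested genes passed. Groups did not overlap, with siHOXA3 higher, for ALDOC and PFKL, against 6.41% of all tested genes, and with siHOXA3 lower for HK2, against 6.88%. Directions were even, with 17 log2 fold changes above 0 and 17 below, and the median was 0.00097 over the members and 0.0019 over all tested genes. The median size of the log2 fold change was 0.115 for the members and 0.139 for all tested genes. The 95% interval of the log2 fold change lay within -0.5 and 0.5 for 28 of the 34 members, with a median half-width of 0.266. Smaller differences were not detectable here for most members. The intervals are not adjusted for the 16561 genes tested, so larger differences could also go uncalled. SLC16A7, a pathway gene outside the members, had a log2 fold change of -0.67 and an adjusted p of 0.486 (edgeR).

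**Figure D3:**
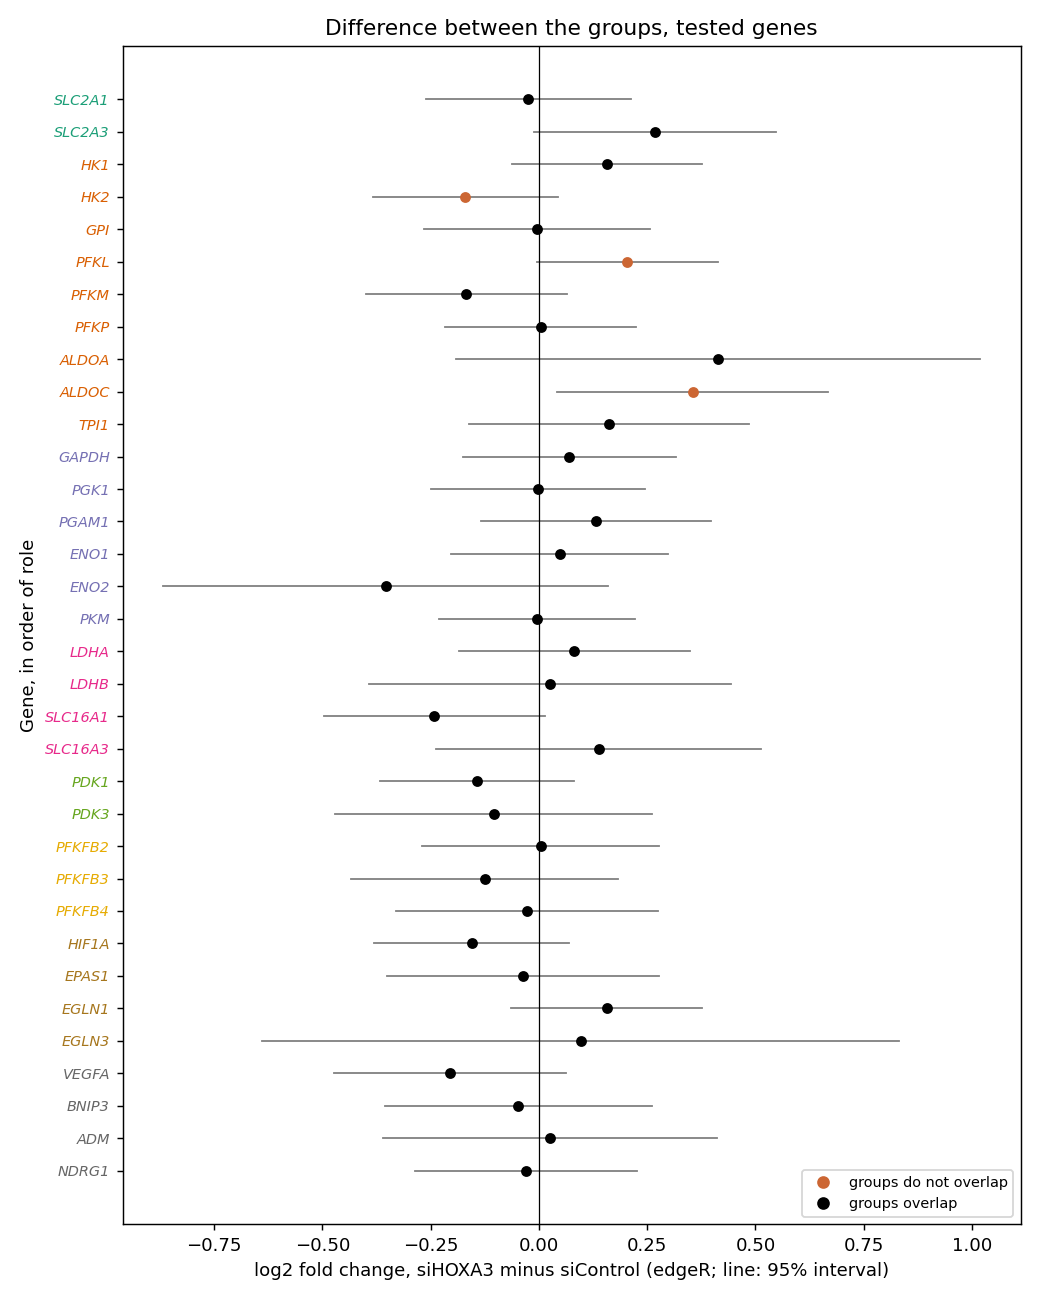
Log2 fold change of siHOXA3 over siControl for the 34 tested members in order of role, with its 95% interval from edgeR. Only the interval of ALDOC (0.04 to 0.67) leaves out 0, and the 3 genes whose groups do not overlap are drawn in orange.

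Of the glucose transporters, SLC2A1, the carrier of basal uptake in most cells, had a log2 fold change near 0, and SLC2A3, a carrier of high affinity, was higher in siHOXA3 replicates 1 and 2 than in any siControl library. SLC2A3 had 770.5, 743.3 and 725.1 CPM in siControl and 1025, 915.1 and 756.7 CPM in siHOXA3. Its groups overlapped because siHOXA3 replicate 3 lay below siControl replicate 1. Its log2 fold change was 0.27 (standard error 0.127, unadjusted p = 0.0584, adjusted p = 0.781, edgeR), and no call was made. The log2 fold change ranged from 0.16 without siHOXA3 replicate 1 to 0.38 without siHOXA3 replicate 3, and without siHOXA3 replicate 2 it was 0.25 (unadjusted p = 0.0275, adjusted p = 0.406, edgeR). SLC2A1 had 432.1 to 460.7 CPM in siControl and 397.5 to 466.3 CPM in siHOXA3, where the lowest value was that of siHOXA3 replicate 2 (log2 fold change -0.02, 95% interval -0.26 to 0.21, and 0.04 without that library). Some 15.3% of the 50-base stretches of SLC2A3 also occur in its paralog SLC2A14, so its counts carry that uncertainty.

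The 9 enzymes from glucose to the triose phosphates had a median log2 fold change of 0.16. Their groups did not overlap for 2 with siHOXA3 higher and 1 with siHOXA3 lower, beside 6.41% and 6.88% of all tested genes, and nothing is read from 3 genes about the group. Hexokinases trap glucose as its phosphate. HK1, the form of most adult tissues, was the larger part, and HK2, the form induced in growing cells and by HIF, was lower in every siHOXA3 library. HK2 (ENSG00000159399, chromosome 2 from 74833981 to 74893359, plus strand, GRCh38) had 90.7, 93.9 and 95.4 CPM in siControl and 87.7, 76.5 and 84.8 CPM in siHOXA3. The groups were close, with siControl replicate 1 just above siHOXA3 replicate 1 (log2 fold change -0.17, standard error 0.0973, 95% interval -0.38 to 0.04, adjusted p = 0.828, edgeR). HK1 had 204.0, 183.6 and 187.1 CPM in siControl and 229.1, 202.0 and 209.7 CPM in siHOXA3. Its groups overlapped only in siHOXA3 replicate 2, which lay below siControl replicate 1 (log2 fold change 0.16, adjusted p = 0.83, edgeR). Without that library it was 0.19 (unadjusted p = 0.0178, adjusted p = 0.367, edgeR), and without siHOXA3 replicate 1 it was 0.10.

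Phosphofructokinase, the committed step of glycolysis, is built from the liver, muscle and platelet subunits PFKL, PFKM and PFKP. PFKL (ENSG00000141959, chromosome 21 from 44300051 to 44327376, plus strand) had 224.8, 210.9 and 206.5 CPM in siControl and 248.6, 251.4 and 239.9 CPM in siHOXA3, all 3 of these above all 3 of siControl. The log2 fold change was 0.20 (standard error 0.0948, 95% interval -0.0038 to 0.41, unadjusted p = 0.0537, adjusted p = 0.781, edgeR), a fold of 1.15. Without siHOXA3 replicate 2 it was 0.19 (unadjusted p = 0.0155, adjusted p = 0.355, edgeR), and 10.7% of all tested genes passed unadjusted there. Without siControl replicate 2 it was also 0.19, with an unadjusted p of 0.164 (adjusted p = 0.997, edgeR). PFKM had 71.0 to 84.5 CPM in siControl and 65.3 to 71.8 CPM in siHOXA3 (log2 fold change -0.17, 95% interval -0.40 to 0.06). PFKP, at 205.7 to 230.9 and 201.8 to 222.8 CPM, had a log2 fold change of 0.00 (95% interval -0.22 to 0.22).

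Aldolase cleaves the fructose bisphosphate. ALDOC, the brain form, was the member with the smallest p. ALDOC (ENSG00000109107, chromosome 17 from 28573115 to 28577264, minus strand) had 15.6, 12.9 and 13.8 CPM in siControl and 18.3, 19.4 and 16.3 CPM in siHOXA3. Each siHOXA3 library lay above each siControl library. The mean was 14.1 ± 1.37 CPM (SD, n = 3) in siControl and 18.0 ± 1.60 CPM (SD, n = 3) in siHOXA3, a fold of 1.28 (log2 fold change 0.35, standard error 0.143, unadjusted p = 0.03, adjusted p = 0.733, edgeR). The unadjusted p stayed between 0.0236 and 0.118 when each library was left out. It was 0.118 without siControl replicate 2, 0.0739 without siControl replicate 3, 0.072 without siHOXA3 replicate 1 and 0.0606 without siHOXA3 replicate 2. An antisense gene, AC005726.4, covers 10.1% of the exon bases of ALDOC and had 0 counts in all 6 libraries.

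ALDOA, the aldolase of muscle and most other tissues, read far lower than its place in the pathway, at 9.40, 5.88 and 3.86 CPM in siControl and 7.77, 8.84 and 8.87 CPM in siHOXA3. Its log2 fold change of 0.41 carried a wide 95% interval of -0.19 to 1.02, and siControl replicate 3 was the lowest library. The value was 0.80 without siControl replicate 1 (unadjusted p = 0.0093, adjusted p = 0.773, edgeR) and 0.15 without siControl replicate 3. Another annotated protein-coding gene, AC093512.2, covers 82.6% of the principal transcript of ALDOA on the same strand and had 16 to 45 counts. How reads on both genes were counted is not given in the sources used here, and the part of this overlap in the low value was not tested. GPI, which isomerizes glucose phosphate, had 96.4 to 128.9 CPM in siControl and 109.8 to 120.5 CPM in siHOXA3 (log2 fold change -0.0043, 95% interval -0.26 to 0.26). TPI1, which interconverts the triose phosphates, had 235.5 to 248.9 CPM in siControl and 260.6, 340.9 and 217.3 CPM in siHOXA3. The high value was that of siHOXA3 replicate 2, and the log2 fold change of TPI1 moved from 0.16 to -0.033 without that library. Of the TPI1 stretches of 50 bases, 11.8% occur in its pseudogene TPI1P1.

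None of the 6 enzymes from glyceraldehyde phosphate to pyruvate passed the test of edgeR, adjusted or not, with a median log2 fold change of 0.02. Their summed level was 4156 ± 3.23 CPM (SD, n = 3) in siControl and 4299 ± 310.6 CPM (SD, n = 3) in siHOXA3, and the wide spread came from siHOXA3 replicate 2 at 4649 CPM. GAPDH had 1779, 1792 and 1723 CPM in siControl and 1814, 1984 and 1761 CPM in siHOXA3. The groups overlapped (log2 fold change 0.07, standard error 0.112, 95% interval -0.18 to 0.32, adjusted p = 0.924, edgeR). PKM, the pyruvate kinase of most tissues, was the member with the smallest ratio of highest to lowest library, at 941.7, 948.0 and 949.4 CPM in siControl and 953.8, 964.4 and 912.6 CPM in siHOXA3. The ratio was 1.06, and the 95% interval of its log2 fold change ran from -0.23 to 0.22.

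PGK1, the kinase that yields the first ATP of the pathway, had 231.3 to 257.2 CPM in siControl and 220.4 to 272.1 CPM in siHOXA3 (log2 fold change -0.0017). Its promoter motifs are among those printed above, and the 95% interval of its log2 fold change was -0.25 to 0.25. PGAM1, the mutase, had 305.2 to 330.4 CPM in siControl and 319.3, 412.4 and 325.5 CPM in siHOXA3 (log2 fold change 0.13, 95% interval -0.13 to 0.40), with siHOXA3 replicate 2 highest. Its log2 fold change was 4.92e-05 without that library. Of its 50-base stretches 26.5% occur in AC012085.1, so its counts are uncertain.

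ENO1, the enolase of most tissues, had 879.2, 846.8 and 888.0 CPM in siControl and 865.8, 1006 and 830.6 CPM in siHOXA3 (log2 fold change 0.05, 95% interval -0.20 to 0.30, and -0.04 without siHOXA3 replicate 2). ENO2, the neuronal enolase, had 15.04, 10.6 and 8.91 CPM in siControl and 10.7, 9.71 and 6.62 CPM in siHOXA3. Its log2 fold change of -0.35 had a 95% interval of -0.87 to 0.16, and it was -0.11 in the fit without siControl replicate 1, its highest library.

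**Figure D4:**
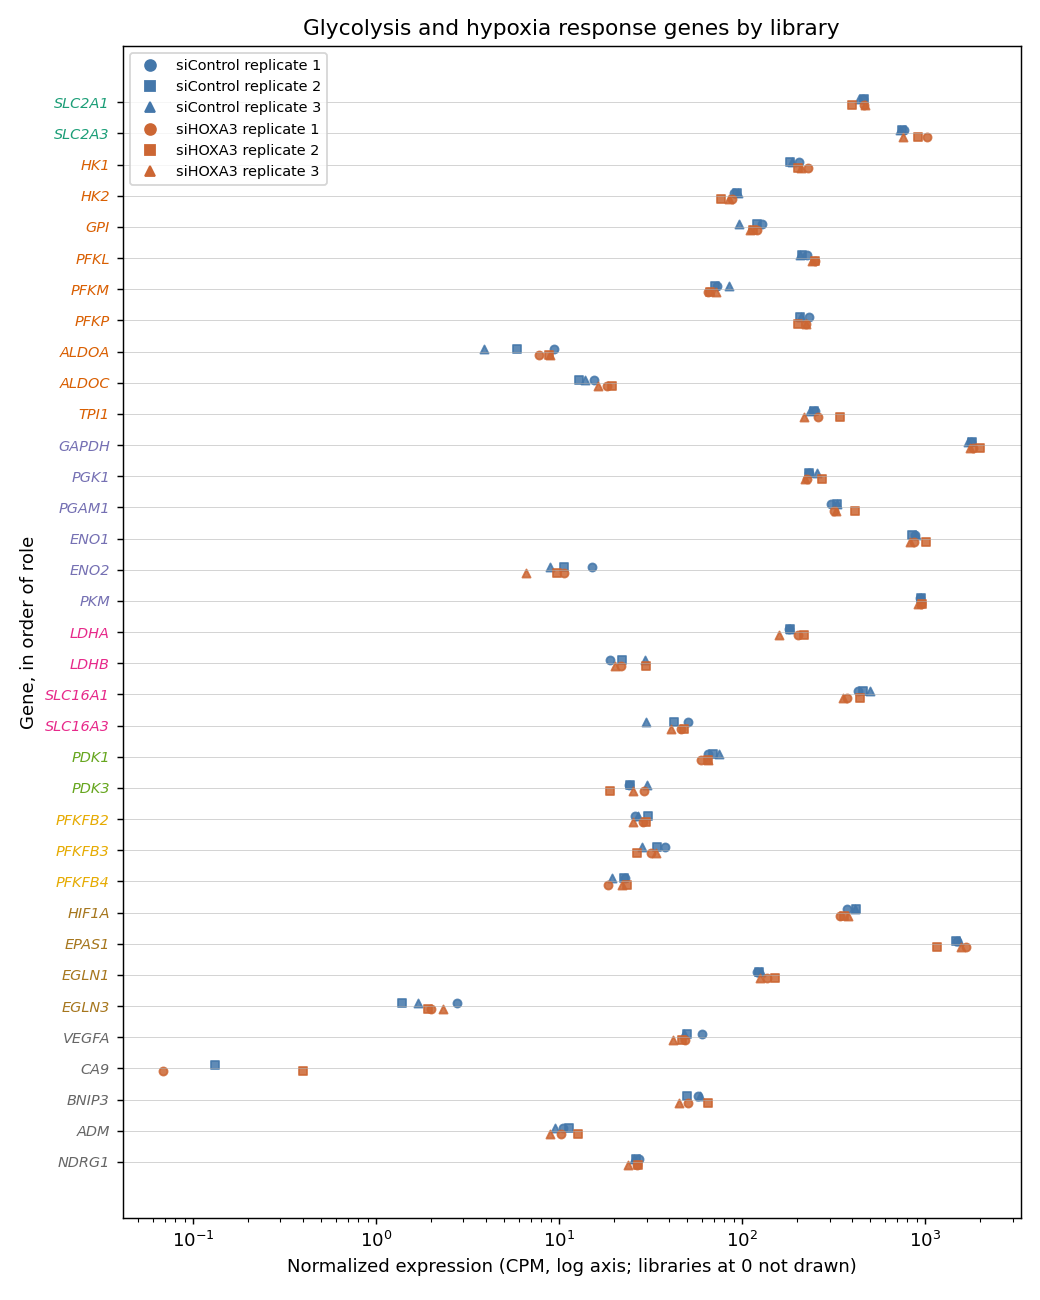
Normalized expression (CPM, log axis) of the 35 members in each of the 6 libraries, in order of role from glucose uptake at the top to the other hypoxia response genes at the bottom. The libraries of both groups lie close together for most genes, and ALDOC (12.9 to 15.6 against 16.3 to 19.4 CPM) and PFKL separate with siHOXA3 higher and HK2 with siHOXA3 lower.

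Lactate dehydrogenase and the lactate carriers complete the route. LDHA, the form that favours lactate, had 180.3, 183.3 and 182.4 CPM in siControl and 201.0, 218.0 and 158.8 CPM in siHOXA3, so that the siHOXA3 libraries lay on both sides of the siControl libraries (log2 fold change 0.08, 95% interval -0.18 to 0.35, and -0.02 without siHOXA3 replicate 2). LDHB, the form of heart and oxidative tissue, had 19.0 to 29.3 CPM in siControl and 20.1 to 29.7 CPM in siHOXA3 (log2 fold change 0.03, and -0.17 without siHOXA3 replicate 2). The gene AC010197.2 covers 64.6% of its principal transcript on the same strand and had at most 1 count in a library, and the part of this overlap in the low level of LDHB was not tested. SLC16A1, the carrier that moves lactate in either direction, had 428.5, 454.7 and 499.3 CPM in siControl and 374.6, 437.5 and 357.3 CPM in siHOXA3. Only siHOXA3 replicate 2 reached into the siControl range. Its log2 fold change was -0.24 (standard error 0.116, unadjusted p = 0.0622, adjusted p = 0.784, edgeR). The fit without siHOXA3 replicate 2 gave -0.34 (adjusted p = 0.0848), the smallest adjusted p of any member in any fit. At the other end, the fit without siControl replicate 3 gave -0.18 (unadjusted p = 0.222, adjusted p = 0.997, edgeR). SLC16A3, the exporter of highly glycolytic cells, had 29.7 to 50.4 CPM in siControl and 40.9 to 48.0 CPM in siHOXA3 (log2 fold change 0.14, 95% interval -0.24 to 0.51).

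The pyruvate dehydrogenase kinases, which hold pyruvate back from the mitochondria, had negative log2 fold changes with intervals that included 0. PDK1, a HIF target, had 65.3, 68.9 and 75.1 CPM in siControl and 59.5, 65.4 and 64.8 CPM in siHOXA3. The groups met at siControl replicate 1 and siHOXA3 replicate 2 (log2 fold change -0.14, 95% interval -0.37 to 0.08, adjusted p = 0.843, edgeR). PDK3 had 24.2 to 30.3 CPM in siControl and 19.0 to 29.2 CPM in siHOXA3 (log2 fold change -0.10, 95% interval -0.47 to 0.26, and 0.05 without siHOXA3 replicate 2). The 3 bifunctional enzymes that set the level of an activator of phosphofructokinase all stood at 37.7 CPM or below. PFKFB3, the form with the strongest kinase activity and a HIF target, had 28.3 to 37.7 CPM in siControl and 26.7 to 33.6 CPM in siHOXA3 (log2 fold change -0.13, 95% interval -0.43 to 0.18). That value ranged from -0.03 without siControl replicate 1 to -0.23 without siControl replicate 3. PFKFB2 stood at 25.3 to 30.7 CPM and PFKFB4 at 18.5 to 23.3 CPM over the 6 libraries, with log2 fold changes of 0.0044 (-0.05 without siHOXA3 replicate 2) and -0.03.

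Both HIF alpha subunits were well expressed, and EPAS1 had the higher level per length. EPAS1 had 1497, 1479.8 and 1536 CPM in siControl and 1666, 1159 and 1576 CPM in siHOXA3. Both other siHOXA3 libraries lay above all 3 siControl libraries, and siHOXA3 replicate 2 lay below them all. The log2 fold change was -0.04 (standard error 0.143, 95% interval -0.35 to 0.28, adjusted p = 0.968, edgeR) and turned to 0.10 without siHOXA3 replicate 2 and to 0.09 with limma-voom and sample quality weights. HIF1A had 374.7, 416.8 and 414.3 CPM in siControl and 344.1, 360.7 and 377.8 CPM in siHOXA3. siHOXA3 replicate 3 lay just above siControl replicate 1 (log2 fold change -0.16, standard error 0.103, 95% interval -0.38 to 0.07, adjusted p = 0.839, edgeR), and without siHOXA3 replicate 2 the value was -0.16 with an unadjusted p of 0.0495 (adjusted p = 0.468, edgeR).

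EGLN1, the main hydroxylase that marks HIF alpha for degradation, had 120.8, 123.7 and 126.1 CPM in siControl and 136.6, 150.8 and 125.8 CPM in siHOXA3. The groups overlapped only between siHOXA3 replicate 3 and siControl replicate 3 (log2 fold change 0.16, 95% interval -0.06 to 0.38, adjusted p = 0.83, edgeR). EGLN3, a hydroxylase that HIF induces, was the lowest member tested at 1.39 to 2.75 CPM in siControl and 1.93 to 2.32 CPM in siHOXA3 (log2 fold change 0.10, 95% interval -0.64 to 0.83).

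Of the other hypoxia response genes 4 were tested and none passed, with 1 log2 fold change above 0 and 3 below. VEGFA, the growth factor of vessels, had 60.4, 50.2 and 48.0 CPM in siControl and 48.9, 47.1 and 41.7 CPM in siHOXA3 (log2 fold change -0.20, standard error 0.122, 95% interval -0.47 to 0.06, adjusted p = 0.828, edgeR). Only siHOXA3 replicate 1 reached into the siControl range, and the value ranged from -0.10 without siControl replicate 1 to -0.27 without siControl replicate 3. BNIP3, a mitophagy receptor, had 50.2 to 58.6 CPM in siControl and 45.1 to 65.0 CPM in siHOXA3. Its log2 fold change was -0.05 and went to -0.22 without siHOXA3 replicate 2, its highest library (unadjusted p = 0.0437, adjusted p = 0.451, edgeR). ADM, the peptide adrenomedullin, had 9.50 to 11.3 CPM in siControl and 8.94 to 12.7 CPM in siHOXA3 (log2 fold change 0.03, and -0.13 without siHOXA3 replicate 2). NDRG1, a stress response gene, stayed within 23.7 to 27.2 CPM over all 6 libraries. CA9, a carbonic anhydrase that is a sensitive marker of HIF activity, was not tested. It had 0, 2 and 0 counts in siControl and 1, 6 and 0 counts in siHOXA3. A count of 0 allows up to 3 counts, or 0.201 and 0.197 CPM in siControl replicates 1 and 3 and 0.211 CPM in siHOXA3 replicate 3, which covers counting error only. The gene ARHGEF39, on the opposite strand, covers 38.5% of the exon bases of CA9 and had 413 to 563 counts.

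Within families of isoenzymes, shares of the summed CPM per kb were taken over the members only. They were compared between groups by an exact two-sided permutation test over libraries, which cannot give less than 0.1, for 11 shares with Benjamini-Hochberg adjustment. HK1 made up 68.4%, 65.3% and 65.4% of HK1 and HK2 in siControl and 71.6%, 71.8% and 70.4% in siHOXA3, a mean of 66.4% ± 1.77 (SD, n = 3) against 71.3% ± 0.731 (SD, n = 3). The groups did not overlap (exact p = 0.1, adjusted p = 0.367), and the difference was 4.89 percentage points. PFKL made up 30.4%, 31.1% and 29.7% of the phosphofructokinase subunits in siControl and 33.7%, 35.7% and 32.5% in siHOXA3 (exact p = 0.1, adjusted p = 0.367). PFKM made up 12.1% to 14.8% in siControl and 10.8% to 11.8% in siHOXA3 (exact p = 0.1, adjusted p = 0.367), and PFKP was the largest part at 55.4% to 57.6% and 52.8% to 55.7%. These 3 shares of separated groups restate the differences of HK1, HK2, PFKL and PFKM and are no independent results.

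ENO1 held 97.9% to 99.0% of ENO1 and ENO2 over all 6 libraries, and SLC16A1 93.2% to 96.6% of SLC16A1 and SLC16A3. SLC2A1 made up 43.6% to 44.7% of SLC2A1 and SLC2A3 in siControl and 37.1%, 36.2% and 44.5% in siHOXA3, where replicate 3 lay within the siControl range (exact p = 0.3, adjusted p = 0.471). HIF1A made up 26.2% to 28.5% of HIF1A and EPAS1 in siControl and 22.7% to 30.6% in siHOXA3 (exact p = 0.6, adjusted p = 0.825). PDK1 held 46.9% ± 1.62 of PDK1 and PDK3 in siControl and 46.6% ± 6.48 in siHOXA3 (SD, n = 3 each). The shares of ALDOA (17.4% to 31.1%) and LDHA (74.9% to 82.0%) rest on genes that other genes overlap, as given above. Shares depend on the length used: with the principal transcript the mean share of HK1 over the 6 libraries was 78.6% in place of 68.8%, that of PFKL 43.3% in place of 32.2%, and that of PDK1 26.4% in place of 46.8%.

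**Figure D5:**
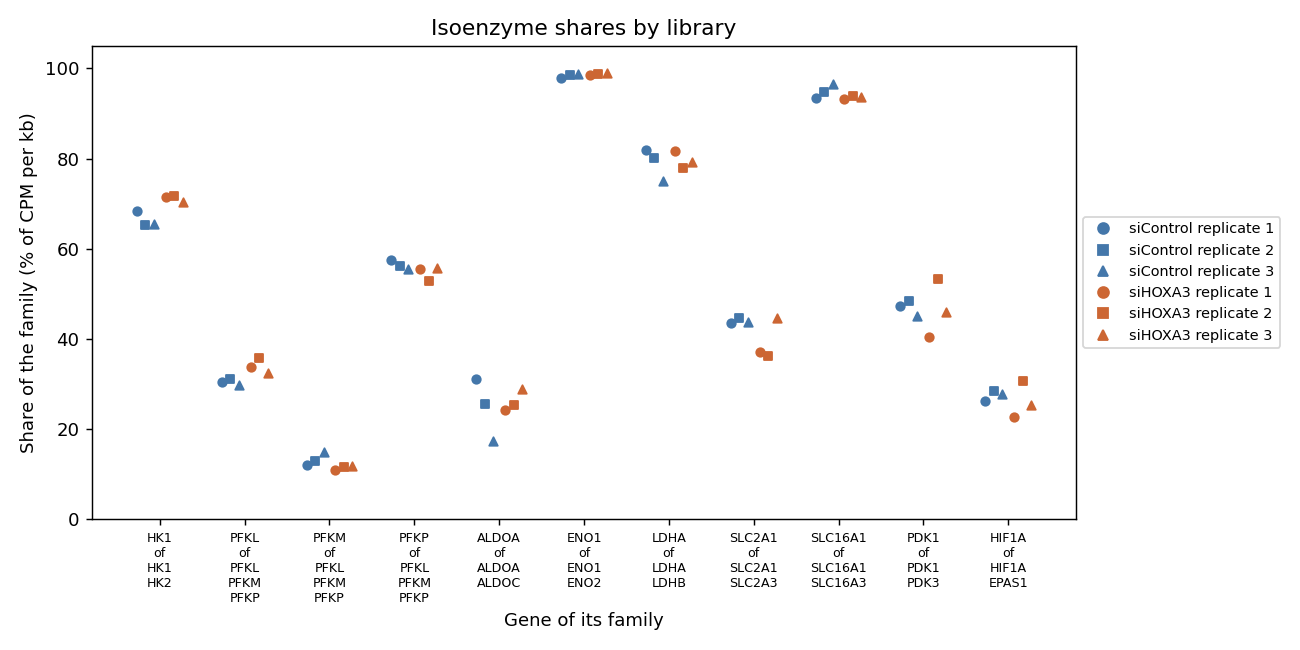
Share of a gene in the summed CPM per kb of the members of its isoenzyme family, in percent, for each library, with siControl in blue and siHOXA3 in orange. HK1 and PFKL lie higher and PFKM lower in all 3 siHOXA3 libraries, while ENO1 stays at 97.9% to 99.0%.

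Other genes of these pathways were counted from lists. Of 88 genes in 6 lists, 73 were tested, 0 passed an adjusted p of 0.05, and at an unadjusted p under 0.05 there were 2 higher and 4 lower in siHOXA3, 8.22% of those tested against the 6.36% of all tested genes given above. Their median log2 fold change was 0.0038. Among 28 other glycolytic isoenzymes and carriers 17 were tested, and SLC16A7, a monocarboxylate carrier with high affinity for pyruvate, had 9.06, 10.1 and 9.76 CPM in siControl and 6.26, 6.32 and 5.63 CPM in siHOXA3. Its groups lay well apart (log2 fold change -0.67, standard error 0.167, unadjusted p = 0.00206, adjusted p = 0.486, edgeR). Among the 11 other HIF pathway genes VHL, which marks hydroxylated HIF alpha for degradation, was the only gene under 0.05 (log2 fold change 0.28, unadjusted p = 0.0377, adjusted p = 0.757, edgeR), and its groups overlapped. It was highest in siHOXA3 replicate 2, at 158.7 CPM, beside 136.1 and 119.7 CPM in siHOXA3 replicates 1 and 3.

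The list of 28 other hypoxia response genes, all tested, was not lower in siHOXA3 as a whole (median log2 fold change 0.0054). Only 3 of the 28 had an unadjusted p under 0.05 (edgeR), all lower in siHOXA3. Among all tested genes 6.36% passed in either direction. The 3 included CA12, a carbonic anhydrase (log2 fold change -0.46), and STC2, a secreted glycoprotein (-0.26), with adjusted p-values of 0.72 and 0.767 from edgeR. CA12 had 17.7, 17.7 and 19.8 CPM in siControl and 14.5, 10.6 and 15.1 CPM in siHOXA3, without overlap. Of the 7 genes of the pentose phosphate pathway PGLS, its lactonase, was higher in siHOXA3 (log2 fold change 0.49, adjusted p = 0.71, edgeR), with 34.9 to 42.2 CPM in siControl and 45.0, 69.8 and 46.1 CPM in siHOXA3. The 69.8 CPM was that of siHOXA3 replicate 2, the library that stood apart, and no value without it is given here. None of the 7 genes of the pyruvate dehydrogenase complex and none of the 3 tested of 7 genes of gluconeogenesis had an unadjusted p under 0.05 in edgeR.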

How the data were processed

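RNA-seq of 6 libraries (3 siControl, 3 siHOXA3) was analysed from the raw read counts per gene that the authors deposited, as whole numbers without normalization. The study names LM-Seq and single reads, and the labels also name a SMARTER kit. Submitters' processing notes list the mouse builds GRCm38 and mm10, but all 58735 identifiers are human and were found in GENCODE release 29 on GRCh38. Aligner, counter and treatment of ambiguous reads are not given in the sources used here. Counts were filtered (filterByExpr), normalized by TMM and tested by the robust two-sided quasi-likelihood test of edgeR 4.0.16 (R 4.3.3) over 16561 genes with Benjamini-Hochberg adjustment, and CPM were computed from the counts, with exon lengths from GENCODE. The fit was tested on simulated data. Members and lists (6 of pathway genes, 6 of markers) were chosen with earlier results of these data known. Full values are given for members with an unadjusted p under 0.05 or without overlap, for the highest of each role group and for isoenzymes. Alternatives were DESeq2 1.42.0, limma-voom (limma 3.58.1) with sample quality weights, other normalizations and filters, the replicate block, each library left out, and other lengths, the principal transcript and overlap-free exon lengths being added after seeing the data. Depth was 14117150 to 15282307 counts per library, and 3 counts equal 0.197 to 0.211 CPM. Single values of 1 gene of the pathway lists are not reported here.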

Additional observations from a re-analysis of the deposited data

How the results depend on the processing

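No alternative brought a member under an adjusted p of 0.05, in edgeR, DESeq2 or limma-voom. The number of members at an unadjusted p under 0.05 was 1 in the reported fit, 6 with limma-voom and its quality weights (where 13.3% of all tested genes passed), 4 with DESeq2 (5.65%), 3 with upper-quartile normalization (6.68%) and 2 each with no filter (5.40%) or with scaling by library size only (6.38%), and 0 to 6 with a library left out. The 6 came from leaving out siHOXA3 replicate 2 (SLC2A3, HK1, PFKL, SLC16A1, HIF1A and BNIP3), where all tested genes passed at 10.7%. There were 3 without siHOXA3 replicate 3 (SLC2A3, ALDOC and TPI1, with 7.97% of all tested genes), 2 without siControl replicate 1 (ALDOA and ALDOC, 5.78%) and 0 without siControl replicate 2 (3.75%), siControl replicate 3 (3.91%) or siHOXA3 replicate 1 (6.0%). The members whose groups did not overlap numbered 5 with upper-quartile normalization (13.3% of all tested genes) and 3 or 4 with the other methods (10.0% to 13.6%). They numbered 4 to 11 with a library left out (11 without siHOXA3 replicate 3, 10 without siControl replicate 1, 8 without siHOXA3 replicate 2 and 6 without siControl replicate 3, beside 24.7%, 24.6%, 27.6% and 20.7% of all tested genes), where fewer samples separate more easily. The correlations of deviations were 0.299, 0.159 and -0.163 between libraries of the same replicate number. Between libraries of different numbers they were -0.289 to 0.177. With 3 libraries per group they cannot settle whether the replicate numbers pair the samples. With the replicate block in edgeR 1 member, ALDOC, had an unadjusted p under 0.05 and GPI a log2 fold change of 0.0047. The median log2 fold change moved by less than the spread between replicates (0.0472) in every alternative. Of 442 log2 fold changes of members in the alternatives 394 kept their direction and 48, of 18 genes, turned, none with an adjusted p under 0.05, and the cause was not tested. With limma-voom those of SLC2A1 (0.021), ENO1 (-0.0049), LDHB (-0.070), PDK3 (0.069), PFKFB2 (-0.056), EPAS1 (0.090) and ADM (-0.11) turned, with upper-quartile normalization those of GPI (0.016), PGK1 (0.019) and PKM (0.016), with library size only those of PFKP (-0.0054) and PFKFB2 (-0.0058), and with no filter that of PGK1 (0.0029). With a library left out, the log2 fold changes ranged as follows for the genes that turned: SLC2A1 from -0.063 to 0.043, GPI from -0.12 to 0.085, PFKP from -0.027 to 0.057, TPI1 from -0.033 to 0.30, PGK1 from -0.11 to 0.058, ENO1 from -0.042 to 0.11, PKM from -0.024 to 0.021, LDHA from -0.020 to 0.21, LDHB from -0.17 to 0.22, SLC16A3 from -0.048 to 0.32, PDK3 from -0.25 to 0.046, PFKFB2 from -0.048 to 0.080, PFKFB4 from -0.10 to 0.064, EPAS1 from -0.14 to 0.10, EGLN3 from -0.097 to 0.43, BNIP3 from -0.22 to 0.064, ADM from -0.13 to 0.14 and NDRG1 from -0.067 to 0.030. Among the genes that kept their direction, ENO2 ranged from -0.51 to -0.11, GAPDH from 0.015 to 0.11, PGAM1 from 4.92e-05 to 0.20, PFKM from -0.22 to -0.087, PDK1 from -0.19 to -0.087 and EGLN1 from 0.084 to 0.22. Between 10 and 14 members reached 50 CPM per kb under the 3 other lengths and the sum with pseudogene rows, and the 88 share differences recomputed moved by less than 1 SD. At this depth a member near 2 CPM such as EGLN3 carried an interval of 0.736 on either side of its log2 fold change.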

Other observations

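Rows of pseudogenes named after a member were counted separately in the table, and most held few reads. The 39 rows named after BNIP3 summed to 150 to 209 counts per library, 16.6% to 32.7% of the count of BNIP3 itself in the same library, and the highest of them was BNIP3P17 with 39 to 72 counts. The row EGLN3P1 held 0, 2 and 2 counts in siControl and 10, 4 and 2 counts in siHOXA3, up to 34.5% of the low count of EGLN3. The 62 rows named after GAPDH summed to 163 to 334 counts, 0.652% to 1.27% of GAPDH. Most of these reads lay on GAPDHP1, with 143, 142 and 167 counts in siControl and 281, 169 and 113 counts in siHOXA3, so that siHOXA3 replicates 1 and 3 held the highest and the lowest value. The 4 rows named after TPI1 summed to 59 to 73 counts in siControl and 40, 63 and 42 counts in siHOXA3, 1.06% to 2.03% of TPI1. Adding these rows to their parent genes left 10 members at 50 CPM per kb or more, and changed the level of BNIP3 most, by a factor of 1.23.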
